A study of Mus musculus with 10 samples.

Results

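The genes described are 10 markers of the trophoblast lineage and of simple epithelia: the transcription factors Cdx2, Eomes, Gata3, Gcm1, Hand1, Tfap2a and Tfap2c, and the keratins Krt8, Krt18 and Krt19. They were taken by symbol from count tables that list 31053 genes, and all 10 symbols were found. Each gene was followed through 10 libraries of E14 mouse embryonic stem (ES) cells, a blastocyst-derived line that here carries a stably integrated Esrrb construct inducible by doxycycline (DOX). All 10 libraries carry this construct, and the sources used here do not say whether the line is a single clone. In the 2iL group (4 libraries, no DOX) the cells grew in N2B27 medium with CHIR99021, an inhibitor of GSK3, PD0325901, an inhibitor of MEK, and the cytokine LIF, which together hold the naive pluripotent state. In the other groups 2iL was taken away and the cells were collected 96 h later, after N2B27 medium without DOX (3 libraries) or with DOX (3 libraries). No library had DOX without the construct, so DOX itself and the induced factor cannot be told apart. Libraries are named by experiment and number as in their titles, so that exp2_1 is library 1 of experiment 2.

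The trophectoderm is the outer layer of the blastocyst and gives rise to the trophoblast cells of the placenta. In it CDX2, EOMES, GATA3 and the AP-2 factors TFAP2A and TFAP2C act in a shared network that sets the lineage apart from the inner cell mass, while HAND1 and GCM1 act later, in giant cells and in the syncytiotrophoblast. None of these factors is exclusive to trophoblast: EOMES and CDX2 also work in the gastrulating embryo, and TFAP2C in germ cell precursors. Keratins form filaments only as partners of opposite type. KRT8 is the type II partner of the type I keratins KRT18 and KRT19 in the first epithelia of the embryo, trophectoderm among them.

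The assay was 3′ digital gene expression, which reads the 3′ ends of polyA RNA. Libraries held 1253620 to 4715450 reads in genes (median 3334324), and 12659 to 14723 genes were detected in each. Levels are CPM, the reads of a gene divided by the library's reads in genes and scaled by TMM and a constant, given as mean ± SD over libraries. They depend on how each gene's 3′ end is captured, so levels are compared between groups for 1 gene and not between genes. Sums over a list of markers are of CPM without TMM scaling. In bulk RNA, fewer cells of a type and less RNA per cell cannot be told apart. The labels do not state separate cultures for the libraries of a group, so p-values measure only the spread between these samples, which may be technical. The 12 pairs of libraries within groups differed by more than sampling noise (chi-square per degree of freedom 4.09 to 34.2), so each library was counted once. The labels of the groups were checked on 10 naive pluripotency markers, whose summed level was 2380 to 2763 CPM without TMM scaling in 2iL, 215 to 280 at 96 h without DOX and 681 to 1216 with DOX (681 and 870 without exp1_2). Esrrb itself did not pass the test with DOX against no DOX (log2 fold change −0.32 ± 0.33 SE, adjusted p = 0.704 by edgeR), and the sources used here do not say whether the construct carries the 3′ end that is counted.

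The library 96 h DOX exp1_2 stands apart from the other libraries. It was the shallowest, with the next at 2769071 reads in genes. A single transcript, Gm42418, took 14.8% of its reads against at most 6.61% elsewhere. A list of 10 fibroblast markers summed to 2740 CPM there and to 2.42 to 27.6 CPM in the other libraries. Calls and ranges that rest on it are given with and without it.

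Of the 10 genes, 7 had enough reads to be tested. Cdx2, Gata3 and Hand1 did not pass the filter of about 10 reads in at least 3 libraries and are too low to judge for differences between groups. Krt19 passed but stayed under 5 CPM on average in every group, so it is called low. The plot of levels by library shows all 10 genes.

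**Figure D1:**
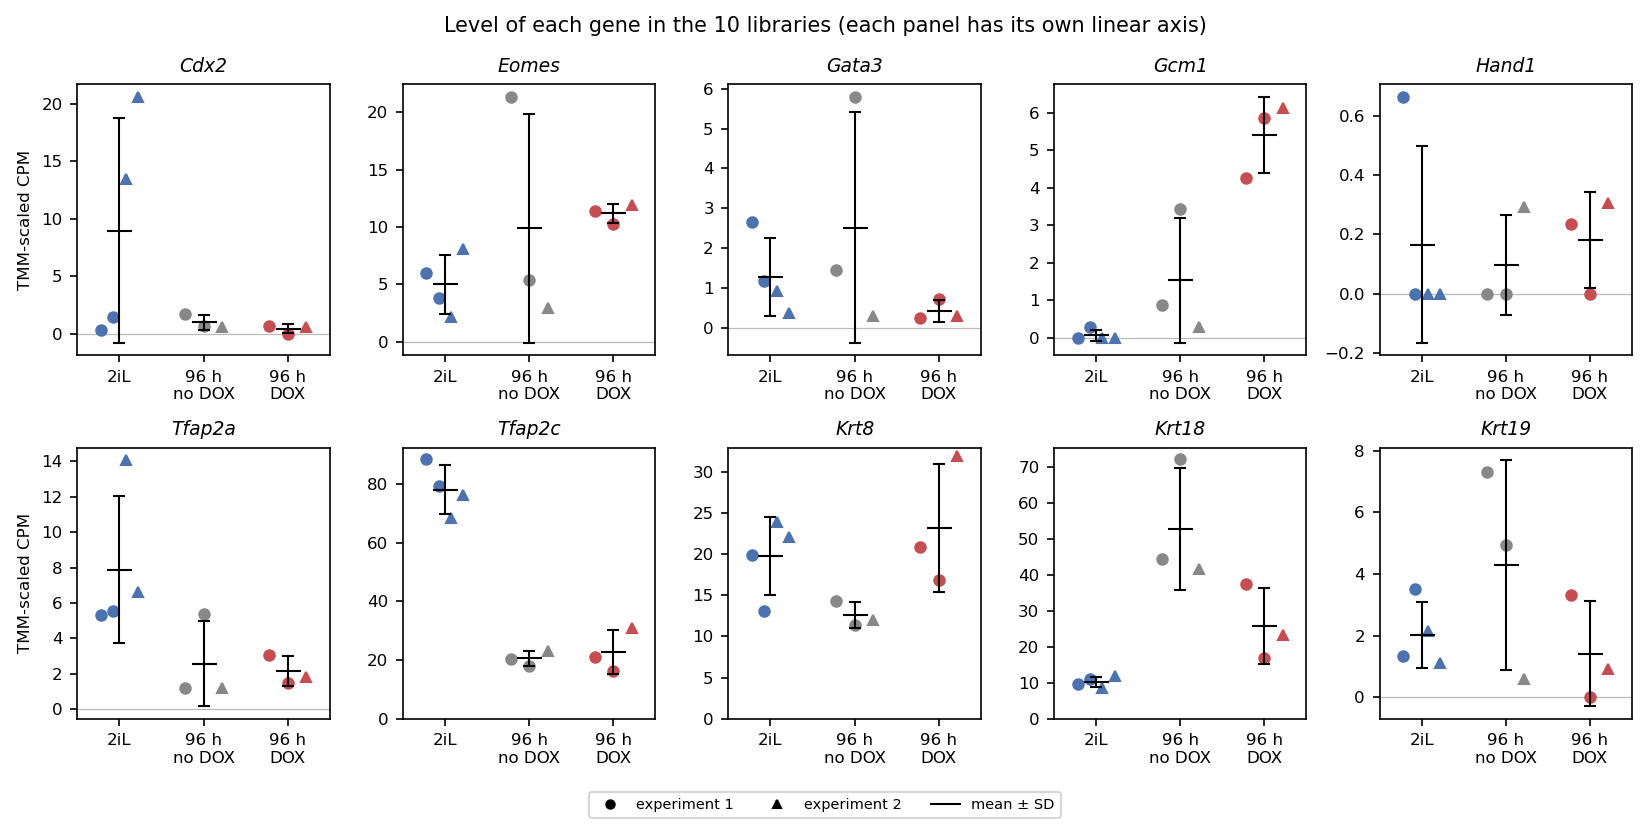
TMM-scaled CPM of the 10 genes (linear vertical axes, one per panel) in the 4 libraries in 2iL, the 3 at 96 h without DOX and the 3 with DOX. Circles are libraries of experiment 1, triangles of experiment 2, and bars are mean ± SD; Tfap2c and Krt18 separate 2iL from both 96 h groups, while Cdx2 is above 10 CPM only in the 2 libraries of experiment 2 in 2iL.

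Between 96 h without DOX and 2iL, 2 of the 7 tested genes rose, Krt18 and Gcm1, where 11.5% of all 11215 tested genes rose. Tfap2c alone fell, where 8.9% of all tested genes fell. The median log2 fold change of the 7 was 0.98, beside 0.00 over all tested genes. This median is the value of Eomes, which was not called and was −0.24 without 96 h no DOX exp1_1. It therefore shows no shift of the 7 as a set. The filter keeps a gene that is high in a single group, so these counts speak of the 7 and not of all 10. Gcm1 passed it through its reads with DOX, with 1 library without DOX above 10 reads, and in a fit of the 2 compared groups alone it is not tested and 2 genes are called in place of 3. A gene was called at a Benjamini-Hochberg adjusted p below 0.05 in edgeR's quasi-likelihood test, adjusted over all tested genes.

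Between 96 h with DOX and 96 h without DOX, none of the 7 was called in either direction, where 2.16% of all tested genes rose and 0.945% fell. The smallest unadjusted edgeR p among the 7 were those of Krt18 (0.00773) and Krt8 (0.0229), with log2 fold changes of −1.0 and 0.90. The share of all tested genes with an unadjusted p this small was not counted. DESeq2 and limma-voom also called 0. The median log2 fold change of the 7 was 0.17. Between 96 h with DOX and 2iL, 2 rose, again Krt18 and Gcm1 (9.84% of all tested genes rose), and Tfap2c fell (6.83% fell). Gcm1 passed the filter through its reads with DOX. Its place among those that rose is therefore not independent of the filter. The 3 comparisons share libraries, so their counts are not independent of each other.

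**Figure D2:**
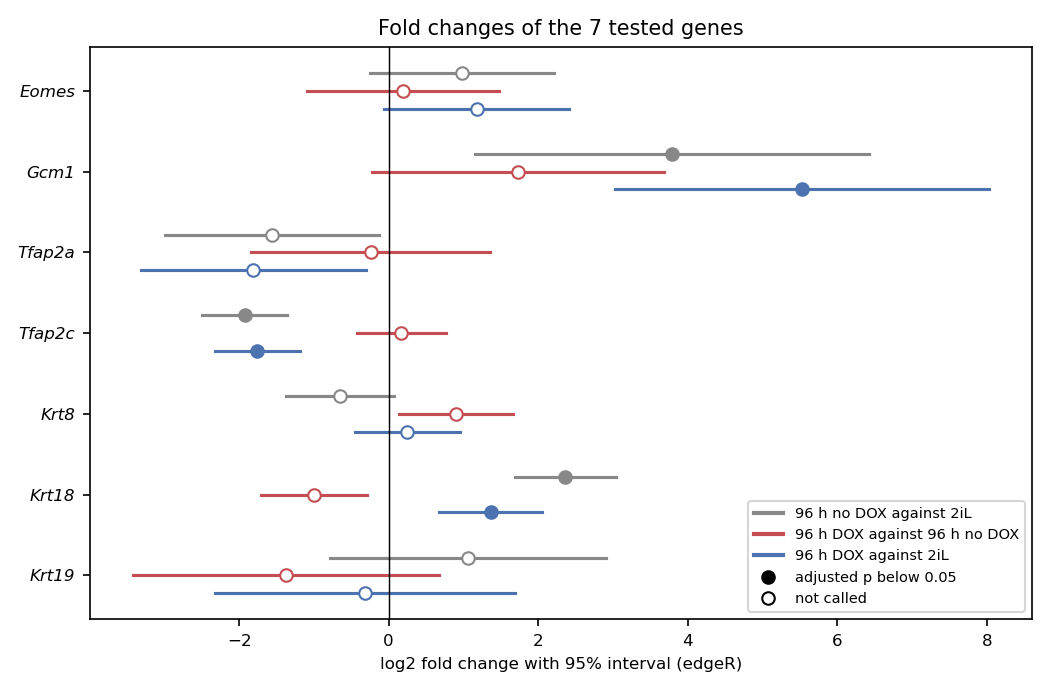
Log2 fold changes of the 7 tested genes (horizontal axis) with 95% intervals from edgeR in the 3 comparisons, shown by colour. Filled points have an adjusted p below 0.05; they are Krt18, Gcm1 and Tfap2c in the comparisons of each 96 h group with 2iL, and no point of 96 h DOX against no DOX is filled.

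The keratins Krt8 and Krt18 are neighbours on chromosome 15 of mm10 and are transcribed away from each other. Krt8 lies at chr15:101996698-102004482 on the minus strand and Krt18 at chr15:102028180-102032027 on the plus strand, with starts 23698 bases apart in GENCODE vM21. The 300 bases around each RefSeq start (build GRCm38.p6, 250 before to 50 after, 5′ to 3′ in the direction of transcription) are shown because the levels of these neighbours are set side by side. Capitals mark letters of a searched motif: a TATA box in Krt8 and an AP-2 palindrome in Krt18. The window of Krt8 is chr15:102004293-102004592 on the minus strand and that of Krt18 is chr15:102027966-102028265 on the plus strand.
Krt8: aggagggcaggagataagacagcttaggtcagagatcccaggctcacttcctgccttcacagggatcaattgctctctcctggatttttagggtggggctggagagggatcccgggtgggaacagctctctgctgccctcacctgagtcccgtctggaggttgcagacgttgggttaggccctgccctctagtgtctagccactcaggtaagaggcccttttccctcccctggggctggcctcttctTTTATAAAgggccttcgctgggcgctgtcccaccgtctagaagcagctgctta
Krt18: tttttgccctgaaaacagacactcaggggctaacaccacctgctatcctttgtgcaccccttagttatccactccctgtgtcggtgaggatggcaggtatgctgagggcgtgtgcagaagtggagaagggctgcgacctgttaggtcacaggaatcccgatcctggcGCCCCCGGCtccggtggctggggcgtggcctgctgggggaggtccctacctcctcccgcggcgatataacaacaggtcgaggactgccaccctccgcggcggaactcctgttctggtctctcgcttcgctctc
The Krt8 window is 58.0% G or C, and the letters TATAAA, read on both strands, overlap its annotated start. The Krt18 window is 61.3% G or C and holds the AP-2 letters GCCNNNGGC 83 bases before the start. TATAAA occurs in 13.6% and GCCNNNGGC in 16.6% of the 32851 RefSeq windows of this length. A match of letters is a description and not a site.

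Krt18 was low in 2iL, high at 96 h without DOX and in between with DOX. In 2iL it stood at 9.62 (exp1_1), 11.1 (exp1_2), 8.57 (exp2_1) and 11.8 (exp2_2) CPM. At 96 h without DOX it stood at 44.5 (exp1_1), 72.2 (exp1_2) and 41.6 (exp2_2) CPM. With DOX it stood at 37.4 (exp1_1), 23.3 (exp2_1) and 16.9 (exp1_2) CPM. No library of any group overlapped another group: each library with DOX lay below each library without DOX and above each 2iL library. The mean rose from 10.3 ± 1.44 (n = 4) in 2iL to 52.7 ± 16.9 (n = 3) without DOX, a log2 fold change of 2.36 ± 0.33 (SE; edgeR adjusted p = 1.83e-05). With DOX the mean was 25.8 ± 10.5 (n = 3), 1.36 ± 0.33 above 2iL on the log2 scale (edgeR adjusted p = 0.00674). The difference between the 96 h groups was −1.0 ± 0.34 on the log2 scale (95% interval −1.71 to −0.29). It was not called, with an edgeR p of 0.00773 and an adjusted p of 0.135.

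The rise of Krt18 without DOX was called under all 20 alternatives, with log2 fold changes from 2.07 to 2.51. With DOX against 2iL the call was lost when 96 h DOX exp1_1, the highest library, was left out (log2 fold change 1.01, edgeR adjusted p = 0.0686). It was also lost within experiment 1 alone (1.42, adjusted p = 0.0812). The difference between the 96 h groups was not called under any alternative, with adjusted p from 0.0619 to 0.425.

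Krt8, the partner of Krt18, was not called in any comparison. In 2iL it stood at 19.9 (exp1_1), 13.1 (exp1_2), 23.9 (exp2_1) and 22.1 (exp2_2) CPM. At 96 h without DOX it stood at 14.3 (exp1_1), 11.4 (exp1_2) and 12 (exp2_2) CPM, and with DOX at 20.8 (exp1_1), 31.8 (exp2_1) and 16.9 (exp1_2) CPM. The libraries with DOX all lay above those without DOX and overlapped those in 2iL. The group means were 19.7 ± 4.71 (n = 4), 12.6 ± 1.56 (n = 3) and 23.2 ± 7.75 (n = 3) CPM. The log2 difference was −0.65 ± 0.34 without DOX against 2iL (edgeR adjusted p = 0.213), and 0.90 ± 0.37 with DOX against no DOX. The latter had an edgeR p of 0.0229, an adjusted p of 0.228 and a 95% interval of 0.14 to 1.66. Against 2iL, the difference with DOX was 0.25 ± 0.34 (edgeR adjusted p = 0.675).

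Krt18 reads per Krt8 read were counted within each library, which removes library scaling; this ratio was chosen after the values had been seen. In 2iL the ratio was 0.483, 0.844, 0.359 and 0.533, so Krt8 gave more reads than Krt18 in all 4 libraries. At 96 h without DOX it was 3.10, 6.34 and 3.46. With DOX it was 1.80 (exp1_1), 0.731 (exp2_1) and 1.00 (exp1_2), below every library without DOX and overlapping 2iL. The mean ratio was 0.555 ± 0.206 in 2iL, 4.30 ± 1.77 without DOX and 1.18 ± 0.554 with DOX. An exact two-sided permutation test over libraries was run on the difference in mean log2 ratio. This difference was 2.95 for no DOX against 2iL (permutation p = 0.0571) and −1.90 for DOX against no DOX (permutation p = 0.1). Each p is the smallest that these group sizes allow. For DOX against 2iL the exact permutation p was 0.114, and adjusted over the 3 comparisons all stood at 0.114. Without 96 h DOX exp1_2 the ratios with DOX remain 1.80 and 0.731.

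**Figure D3:**
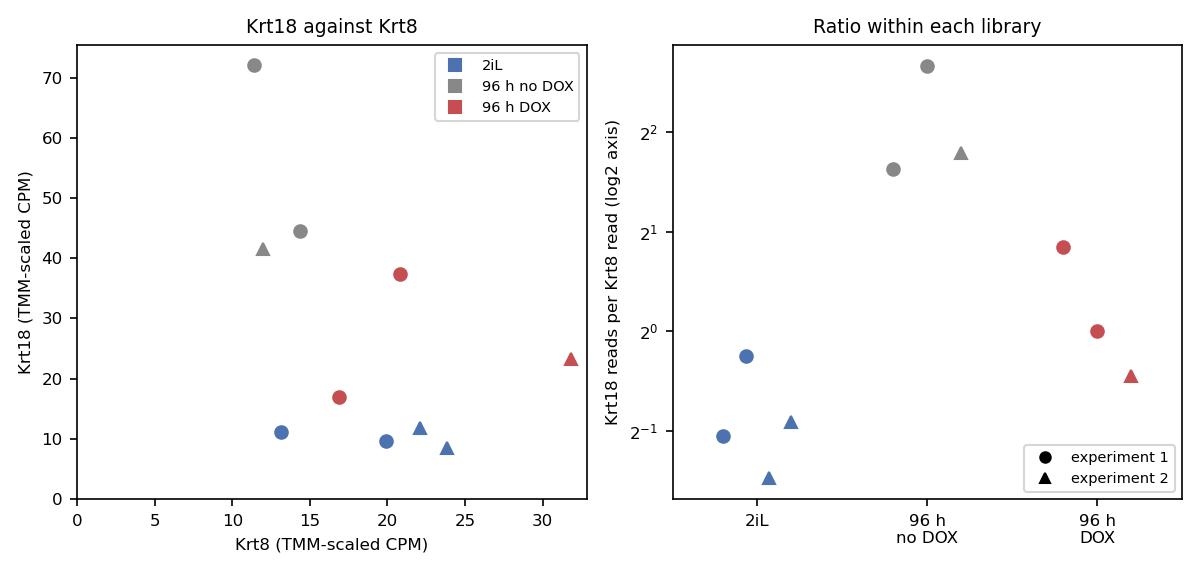
Left, Krt18 against Krt8 in each library (both axes TMM-scaled CPM); right, Krt18 reads per Krt8 read by group on a log2 axis. Colours are groups, circles experiment 1 and triangles experiment 2; the 3 libraries at 96 h without DOX combine low Krt8 with high Krt18 and hold ratios from 3.10 to 6.34.

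Over the 10 libraries, the levels of Krt8 and Krt18 had a Pearson r of −0.49 on the log2(CPM + 1) scale. The genes most like Krt18 by this measure were Spred3 (r = 0.989), which encodes an inhibitor of RAS-ERK signalling, Slc16a3 (0.988), which encodes the lactate exporter MCT4, and Fam131b (0.983). Those most like Krt8 were Zfp988 (0.931), Ptar1 (0.923) and Llgl2 (0.910), the last a regulator of epithelial polarity. The points of each correlation share libraries and fall into 3 groups, so these values describe likeness of pattern only.

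Krt19, at chr11:100140810-100148665, is a small type I keratin of simple epithelia. It gave 4, 12, 7 and 3 reads in 2iL (exp1_1, exp1_2, exp2_1, exp2_2). At 96 h it gave 25, 23 and 2 reads without DOX (exp1_1, exp1_2, exp2_2) and 14, 3 and 0 with DOX (exp1_1, exp2_1, exp1_2). All 3 groups overlapped. The means were 2.02 ± 1.08 (n = 4), 4.28 ± 3.41 (n = 3) and 1.41 ± 1.71 (n = 3) CPM, and Krt19 was not called in any comparison (edgeR adjusted p 0.475, 0.556 and 0.864 for no DOX against 2iL, DOX against no DOX and DOX against 2iL). Its log2 difference without DOX against 2iL was 1.06 with a 95% interval of −0.78 to 2.90.

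Tfap2c, at chr2:172549593-172558622 on the plus strand, encodes AP-2 gamma, which works in trophoblast and in primordial germ cells. It gave 969 reads over the 4 libraries in 2iL, at 88.6 (exp1_1), 79.2 (exp1_2), 68.2 (exp2_1) and 76.2 (exp2_2) CPM. At 96 h it gave 20.5 (exp1_1), 18.04 (exp1_2) and 23.1 (exp2_2) CPM without DOX. With DOX it gave 21.1 (exp1_1), 30.9 (exp2_1) and 16.1 (exp1_2) CPM. Every 2iL library lay above every 96 h library, and the 96 h groups overlapped. The mean fell from 78.1 ± 8.41 (n = 4) to 20.5 ± 2.54 (n = 3) without DOX, by 1.93 ± 0.27 on the log2 scale (edgeR adjusted p = 2.47e-05). With DOX the mean was 22.7 ± 7.52 (n = 3), and the log2 fold change against 2iL was −1.75 ± 0.27 (edgeR adjusted p = 0.00012). Both calls held under all 20 alternatives. Between the 96 h groups the log2 difference was 0.17 ± 0.29 (edgeR adjusted p = 0.837), with a 95% interval of −0.43 to 0.77.

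The fall of Tfap2c moved with markers of other states. Among 9 primordial germ cell markers, all tested, 6 fell and 1 rose between 2iL and 96 h without DOX. Of all tested genes, 8.9% fell and 11.5% rose. The germ cell list summed to 101 to 210 CPM in 2iL and to 36.3 to 55.3 CPM without DOX. No marker of it had 0 reads in all libraries. Among 10 naive pluripotency markers, all fell in the same comparison; Dppa3 stands in both lists. The part of either in the fall of Tfap2c was not tested. The genes most like Tfap2c over the 10 libraries were Rab11fip5 (r = 0.992), an effector of RAB11 in vesicle recycling, Kat6b (0.989), a histone acetyltransferase, and Zbtb44 (0.989). Among the other listed genes, Tfap2a had r = 0.71 and Krt18 r = −0.83 with Tfap2c.

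Tfap2a, at chr13:40715302-40738376, encodes AP-2 alpha, best known from surface ectoderm and neural crest. It gave 5.31 (exp1_1), 5.54 (exp1_2), 14.1 (exp2_1) and 6.63 (exp2_2) CPM in 2iL. At 96 h it gave 1.17, 5.37 and 1.17 CPM without DOX (exp1_1, exp1_2, exp2_2) and 3.08, 1.84 and 1.47 CPM with DOX (exp1_1, exp2_1, exp1_2). Libraries with DOX all lay below 2iL, and without DOX a single library, exp1_2, reached into the 2iL range. The log2 difference against 2iL was −1.57 ± 0.69 without DOX (edgeR adjusted p = 0.122) and −1.81 ± 0.72 with DOX (edgeR adjusted p = 0.0929), so neither was called. Without the library 96 h no DOX exp1_2 the first became −2.71 and was called (edgeR adjusted p = 0.0321). Between the 96 h groups the log2 difference was −0.24 ± 0.77 (edgeR adjusted p = 0.921). Antisense genes overlap Tfap2a, of which Gm47061 held 20 reads and Gm26688 held 6 over all libraries; the sources used here give no strand setting for the counting, so reads of either strand may be mixed.

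Eomes, at chr9:118478212-118486132, encodes a T-box factor of trophoblast stem cells and of the primitive streak. It gave 5.97 (exp1_1), 3.79 (exp1_2), 2.14 (exp2_1) and 8.10 (exp2_2) CPM in 2iL. Without DOX it gave 21.4 (exp1_1), 5.37 (exp1_2) and 2.93 (exp2_2) CPM. With DOX it gave 11.4 (exp1_1), 11.9 (exp2_1) and 10.3 (exp1_2) CPM. The libraries with DOX all lay above those in 2iL and close together, while those without DOX spread around both. The means were 5.0 ± 2.59 (n = 4), 9.88 ± 10.01 (n = 3) and 11.2 ± 0.846 (n = 3) CPM. No comparison was called: the log2 difference was 0.98 ± 0.59 without DOX against 2iL (edgeR adjusted p = 0.283), and 1.18 ± 0.59 with DOX against 2iL (adjusted p = 0.194). Between the 96 h groups it was 0.19 ± 0.62 (adjusted p = 0.921). Leaving out 96 h no DOX exp1_1, the highest library, turned the first of these to −0.24 and the difference between the 96 h groups to 1.42, neither called.

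Gcm1, at chr9:78051924-78065624 on the plus strand, encodes the factor that drives fusion of trophoblast cells into the syncytiotrophoblast. Its RefSeq promoter window, chr9:78051708-78052007 on the plus strand of GRCm38.p6, is shown because Gcm1 had the largest fitted fold change of the 7 tested genes. It has no capitals, since none of the 5 searched motifs occurs in it, and it is 46.3% G or C.
Gcm1: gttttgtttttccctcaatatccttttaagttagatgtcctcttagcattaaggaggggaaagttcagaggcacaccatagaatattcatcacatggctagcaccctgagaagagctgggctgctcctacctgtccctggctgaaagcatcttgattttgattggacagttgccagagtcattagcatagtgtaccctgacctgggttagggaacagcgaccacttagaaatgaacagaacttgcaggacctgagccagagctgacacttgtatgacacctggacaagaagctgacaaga
The search also covered AAGGTCA on both strands, the extended nuclear receptor site that Esrrb is known to prefer, which occurs in 4.72% of all windows. The GC box, GGGCGG, occurs in 35.7%. The GATA site, AGATAA, occurs in 11.2%, and in the Krt8 window above it lies 239 bases before the start, left in lower case. The nuclear receptor letters were in none of the windows found for 7 of the 10 genes, and no entry was matched for Hand1, Tfap2c and Krt19.

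Gcm1 was nearly unread in 2iL, with 0 (exp1_1), 1 (exp1_2), 0 (exp2_1) and 0 (exp2_2) reads. At 96 h without DOX it gave 3 (exp1_1), 16 (exp1_2) and 1 (exp2_2) reads, so 16 of 20 came from a single library. With DOX it gave 18 (exp1_1), 20 (exp2_1) and 8 (exp1_2) reads. The levels were 0.0728 ± 0.146 (n = 4), 1.54 ± 1.67 (n = 3) and 5.42 ± 1.01 (n = 3) CPM. All 3 libraries with DOX lay above all libraries without DOX, at 4.26 to 6.12 against 0.293 to 3.44 CPM. Because 2iL held 1 read, the difference is given as a ratio of reads per library total: 22.4 without DOX (95% counting interval 3.59 to 929) and 70.8 with DOX (12.1 to 2855). These intervals cover counting error only, and so do all intervals and limits from reads here.

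Gcm1 entered the test through its reads with DOX and passed it in both comparisons with 2iL, with edgeR adjusted p = 0.0371 without DOX and 0.00288 with DOX. The call without DOX held in 8 of 19 alternatives and in 3 of 10 fits that left out 1 library, with adjusted p from 0.0192 to 0.328. Those 3 left out 2iL exp1_2, 96 h no DOX exp2_2 or 96 h DOX exp1_2; the call was lost without any of the other 7 libraries, and the adjusted p was highest, 0.328, without 96 h no DOX exp1_2. The call with DOX held in 19 of 20 alternatives and was lost in experiment 1 alone (adjusted p = 0.0676); it held without 96 h DOX exp1_2. Between the 96 h groups the log2 difference was 1.73 ± 0.94 (edgeR adjusted p = 0.403), with a 95% interval of −0.22 to 3.69. Without 96 h no DOX exp1_2 it was 3.12, and it was not called (edgeR adjusted p = 0.260). Of the 451 stretches of 50 bases in the last 500 bases of the Gcm1 transcript, 110 (24.4%) also occur in transcripts of other genes; for the other 9 genes the share was at most 1.11%.

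In a list of 24 trophectoderm and placental effector genes, 18 had reads and 6 had 0 reads in all 10 libraries: the syncytins Syna and Synb, the placental prolactins Prl3d1 and Prl3b1, the spongiotrophoblast marker Tpbpa and the labyrinth protease Ctsq. A count of 0 allows a level of up to 3 reads, which is 0.636 to 2.39 CPM in these libraries. Elf5, a core factor of trophoblast stem cells, also had 0 reads in all libraries.

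Cdx2, at chr5:147300805-147307270, encodes the homeobox factor that opens the trophectoderm programme and later patterns the posterior axis. It gave 1 (exp1_1), 5 (exp1_2), 44 (exp2_1) and 56 (exp2_2) reads in 2iL. At 96 h it gave 6, 3 and 2 reads without DOX (exp1_1, exp1_2, exp2_2) and 3, 2 and 0 with DOX (exp1_1, exp2_1, exp1_2). The libraries of experiment 2 in 2iL stood at 13.5 and 20.6 CPM, and the other 8 libraries at 0 to 1.76 CPM. Cdx2 therefore passed 10 reads in 2 libraries and was not tested between groups in the filtered fit.

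Within 2iL, experiment 2 held 18.9 times the Cdx2 reads of experiment 1 per library total (100 against 6 reads, 95% counting interval 8.39 to 52.8). A fit of all 18318 genes with a read, with the experiments as separate groups, was added after these values had been seen. In it Cdx2 was higher in experiment 2 by 4.16 ± 1.04 on the log2 scale (edgeR adjusted p = 0.0464, 2 libraries each), where 0.136% of all genes were called in either direction. In a fit of the same genes by group alone, the log2 fold change of Cdx2 against 2iL was −3.14 ± 0.86 without DOX (edgeR adjusted p = 0.00328; 5.88% of these genes fell) and −3.99 ± 0.95 with DOX (edgeR adjusted p = 0.000645; 5.13% fell). Those differences rest on experiment 2: the libraries of experiment 1 overlapped between 2iL and 96 h. The difference of the 2iL removal effect between experiments was −5.12 ± 1.82 (edgeR adjusted p = 0.376), so it was not called.

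Cdx1 and T, named after their values had been seen, were called higher in the same 2iL libraries. Cdx1, a paralog of Cdx2, stood at 0.663 and 1.75 CPM in experiment 1 and at 46.2 and 42.0 CPM in experiment 2, higher by 5.12 ± 0.74 on the log2 scale (edgeR adjusted p = 3.31e-08). The gene T, which encodes brachyury, stood at 4.31 and 1.46 CPM in experiment 1 and at 70.4 and 62.2 CPM in experiment 2 (4.53 ± 0.59, edgeR adjusted p = 2.42e-10). Cdx4 gave 0, 1, 4 and 19 reads in the 4 libraries (4.43 ± 2.27, adjusted p = 1.0) and was not called. Nor were the streak markers Mixl1 (4.65 ± 1.40, edgeR adjusted p = 0.220), Evx1 (2.67 ± 1.02, 0.611) and Tbx6 (0.56 ± 2.38, 1.0). The whole list of 12 primitive streak and mesoderm markers summed to 34.2 and 25.1 CPM in experiment 1 and to 135 and 106 CPM in experiment 2, where T alone gave much of the sum, and Hand2 and Msgn1 had 0 reads in all libraries. At 96 h the sums were 11.2 to 16.9 CPM without DOX and 16.3 to 72.6 CPM with DOX (16.3 and 26.9 without exp1_2). The part of these markers, or of the experiment, in the level of Cdx2 was not tested. Eomes did not follow this pattern: its log2 difference between the experiments in 2iL was 0.05 ± 0.68 (edgeR adjusted p = 1.0).

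**Figure D4:**
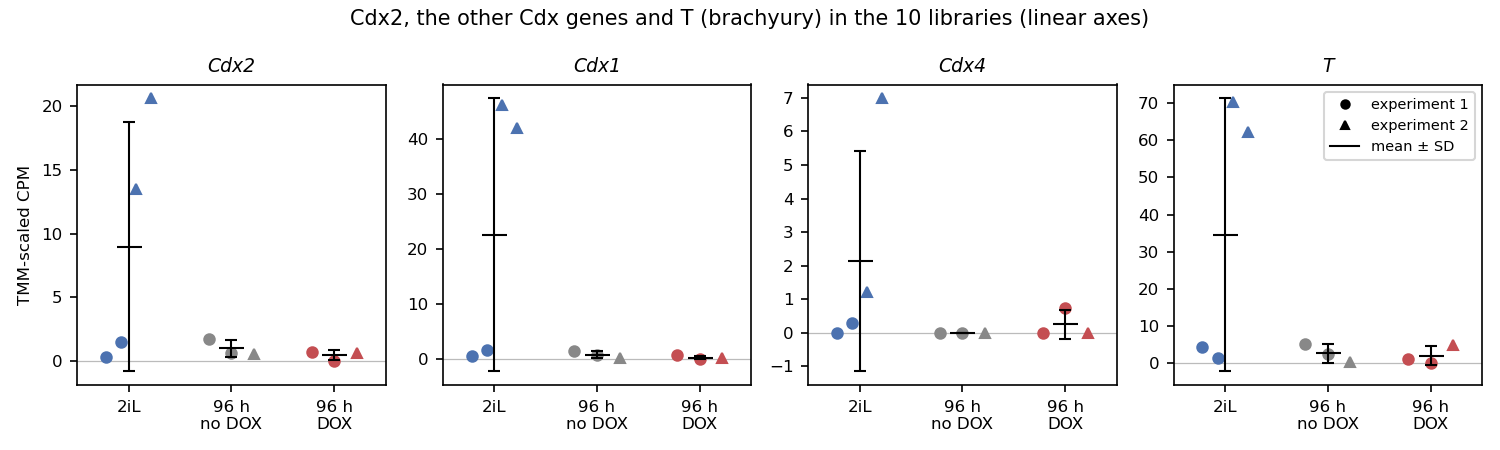
TMM-scaled CPM (linear axes) of Cdx2, its paralogs Cdx1 and Cdx4, and T by library; circles are experiment 1, triangles experiment 2, bars mean ± SD. The triangles in 2iL stand highest in every panel, at 13.5 and 20.6 CPM for Cdx2.

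Gata3, at chr2:9857078-9890034, encodes a zinc finger factor of trophectoderm and of several later tissues. It gave 8, 4, 3 and 1 reads in 2iL (exp1_1, exp1_2, exp2_1, exp2_2). At 96 h it gave 5, 27 and 1 reads without DOX (exp1_1, exp1_2, exp2_2) and 1 read in each library with DOX. A single library, 96 h no DOX exp1_2, held 27 of the 33 reads without DOX, and the other 9 libraries held 8 reads or fewer. The ratio of reads per library total was 8.02 without against with DOX (95% counting interval 2.51 to 40.9), and it rests on that library. The levels were 1.28 ± 0.977 (n = 4), 2.52 ± 2.90 (n = 3) and 0.426 ± 0.269 (n = 3) CPM, and no difference could be judged.

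Hand1, at chr11:57828705-57832818, encodes a basic helix-loop-helix factor of trophoblast giant cells and of the heart. It gave 5 reads in all 10 libraries together: 2 in 2iL exp1_1, 1 in 96 h no DOX exp2_2, and 1 each in 96 h DOX exp1_1 and exp2_1. These counts lie under the limit of 3 reads per library and say nothing of a difference.

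The library 96 h no DOX exp1_2 held the highest count without DOX of Gata3, Gcm1, Tfap2a, Krt18, Krt8 and Tfap2c. It was also the deepest library, at 4715450 reads in genes. On the CPM scale, which removes depth, it was still the highest of the 3 for Gata3, Gcm1, Tfap2a and Krt18. For Krt8 (11.4 CPM) and Tfap2c (18.04 CPM) it was the lowest of the 3. It was not the highest for Cdx2, Eomes, Krt19 or Hand1.

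Other factors of the trophoblast network were read from a list of 24 genes, of which 16 were tested. Without DOX against 2iL, 4 rose and 3 fell, where 11.5% of all tested genes rose and 8.9% fell. The median log2 fold change was −0.41 beside 0.00 over all tested genes. The filter keeps a gene that is high in a single group, so counts here and in lists below cover tested genes only. Grhl2, a grainyhead factor of epithelia, rose from 4.36 ± 3.98 to 34.8 ± 6.49 CPM, and Satb1, a chromatin organizer, from 9.27 ± 2.14 to 35.8 ± 11.4 CPM. Klf5, which acts in both trophectoderm and naive pluripotency, fell from 310 ± 49.2 to 63.4 ± 17.2 CPM. Tead4 and Wwtr1, the DNA-binding factor and the coactivator TAZ of the Hippo pathway that switch on Cdx2 in the embryo, fell by 2.88 ± 0.67 and 1.27 ± 0.32 on the log2 scale (edgeR adjusted p = 0.00345 and 0.00613).

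With DOX against no DOX, 3 of the 16 rose and 0 fell (2.16% and 0.945% of all tested genes). Those that rose were Klf5, Wwtr1 and Tead4. This comparison shares the libraries without DOX with the one before. Tead4 was 0.585, 0.859 and 2.34 CPM without DOX and 6.63 (exp1_1), 13.5 (exp2_1) and 10.3 (exp1_2) CPM with DOX (log2 fold change 2.98 ± 0.69, edgeR adjusted p = 0.0183). Wwtr1 was 12.3, 9.45 and 10.5 CPM without DOX and 36.2, 46.2 and 65.3 CPM with DOX (2.18 ± 0.34, edgeR adjusted p = 0.00062). Klf5 was 82.8, 49.6 and 57.9 CPM without DOX and 229, 285 and 610 CPM with DOX (2.56 ± 0.33, edgeR adjusted p = 7.06e-05). No library overlapped between the 96 h groups for these 3, and all 3 stayed called without 96 h DOX exp1_2. In 2iL Tead4 was 3.68 to 16.6 and Klf5 264 to 354 CPM, so both overlapped the libraries with DOX. Wwtr1 was 20.25 to 33.17 CPM in 2iL, below each library with DOX. Klf5 also stands in the naive pluripotency list. With DOX against 2iL, 5 of the 16 rose and 0 fell, where 9.84% of all tested genes rose. Grhl2, Satb1 and Hopx were among these 5. Without 96 h DOX exp1_2, 4 rose, and none of these was Klf5, Wwtr1 or Tead4. Cdx2 had 0 to 3 reads per library in the same DOX group.

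Of the 24 effector genes, 13 were tested. Without DOX against 2iL 2 rose and 5 fell, where 11.5% of all tested genes rose and 8.9% fell. With DOX against no DOX 4 rose and 0 fell (3 rose without 96 h DOX exp1_2). Of all tested genes, 2.16% rose and 0.945% fell in that comparison. With DOX against 2iL 4 rose and 3 fell, where 9.84% of all tested genes rose and 6.83% fell. Among these 4, Peg10, an imprinted gene needed for the placenta, rose from 14.0 ± 12.3 to 103 ± 61.9 CPM (log2 fold change 2.87 ± 0.50, edgeR adjusted p = 0.000578). The next 3 genes rose with DOX against no DOX. Dab2, an endocytic adaptor of trophectoderm and of primitive endoderm, rose from 2.59 ± 0.752 to 32.9 ± 16.7 CPM (log2 fold change 3.62 ± 0.57, edgeR adjusted p = 0.000788). Fabp3, a fatty acid binder, rose by 1.20 ± 0.27, and Cdh3, placental cadherin, by 1.55 ± 0.36 on the log2 scale (edgeR adjusted p = 0.0143 and 0.0181). Fabp3 did not rise above 2iL, at 265.5 ± 51.5 CPM in 2iL, 86.5 ± 23.2 without DOX and 197.4 ± 54.9 with DOX. Aqp3, a water and glycerol channel of trophectoderm, fell without DOX from 22.8 ± 12.1 to 2.28 ± 0.312 CPM. It was lower still with DOX, at 0.464 ± 0.459 CPM (−5.27 ± 0.68 on the log2 scale beside 2iL, edgeR adjusted p = 1.76e-05). Atp1b1 also fell with DOX, from 198.9 ± 23.0 in 2iL to 97.2 ± 19.8 CPM. So did Cldn4, from 85.7 ± 21.0 to 44.2 ± 11.4 CPM. With 96 h DOX exp1_2 left out, Aqp3 and Atp1b1 still fell and Cldn4 was not called.

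Markers of primitive and visceral endoderm moved with DOX beside these genes. Of 14 listed, 11 were tested and 9 rose with DOX against no DOX (7 without 96 h DOX exp1_2), and none fell. Of all tested genes, 2.16% rose. The filter keeps a gene that is high with DOX alone, so this count speaks of the 11 and not of all 14. The list summed to 314 to 534 CPM in 2iL, to 204 to 273 without DOX and to 566 to 1051 with DOX (566 and 705 without exp1_2). Apoe averaged 436 CPM in 2iL and 221 CPM without DOX, so it gave much of those sums. Afp had 0 reads in all libraries. Dab2 stands in both lists. Among 14 paralogs of the transcription factors, 2 were tested, the endoderm factors Gata6 and Gata4. Both passed the filter through their reads with DOX, where they are high. Gata4 averaged 0.215 CPM without DOX and 7.32 CPM with DOX. That both rose with DOX was therefore largely set by the filter and says nothing of the paralogs as a set. Gata6 was 0.292, 0.430 and 1.76 CPM without DOX and 47.1 (exp1_1), 45.3 (exp2_1) and 60.9 (exp1_2) CPM with DOX (log2 fold change 5.93 ± 0.67, edgeR adjusted p = 2.31e-05), whereas Gata3 had 1 read in each of these DOX libraries. Of Gata6 and Gata4, Gata6 alone was called without 96 h DOX exp1_2. The part of the endoderm markers in the levels of Krt8, Gcm1 and Eomes with DOX was not tested.

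Surface ectoderm and neural crest markers, which share keratins and AP-2 factors with this set, summed to 12.7 to 35.1 CPM in 2iL, 17.8 to 40.1 without DOX and 32.7 to 41.5 with DOX. Of 12 listed, 3 were tested and edgeR called 0 in each comparison. Neural progenitor markers, high where Krt18 was high, summed to 40.7 to 51.8 CPM in 2iL, 338 to 449 without DOX and 73.4 to 115 with DOX (99.7 and 115 without exp1_2). Of 10 listed, 6 were tested. Without DOX against 2iL 3 rose and 0 fell, where 11.5% of all tested genes rose. With DOX against no DOX 2 fell and 0 rose, where 0.945% of all tested genes fell. The part of the neural markers in the level of Krt18 was not tested.

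Besides the 3 simple keratins, 46 keratin symbols are listed, of which 29 had reads, 17 had 0 reads in all libraries and 3 were tested. Krt42, Krt10 and Krt7, those tested, gave 257, 171 and 113 reads over all libraries, each more than the 93 of Krt19. Krt42 was called, and fell without DOX from 17.2 ± 7.47 to 1.24 ± 0.936 CPM (log2 fold change −3.82 ± 0.69, edgeR adjusted p = 0.000379) and was 4.09 ± 2.54 CPM with DOX. Krt7, a type II keratin of simple and placental epithelia, was 1.52 ± 0.937, 3.69 ± 1.83 and 5.58 ± 3.48 CPM in the 3 groups and was not called.

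Genes whose products anchor keratin filaments were read from 16 desmosome and hemidesmosome genes, of which 11 were tested. Of all tested genes, 11.5% rose and 8.9% fell without DOX against 2iL, and 2.16% rose with DOX against no DOX. Without DOX 3 rose and 0 fell against 2iL: Pkp2, a desmosomal plakophilin, from 27.8 ± 5.08 to 68.9 ± 29.9 CPM, Itga6, a laminin-binding integrin, from 78.5 ± 17.1 to 145 ± 32.9 CPM, and Evpl, envoplakin, from 0.460 ± 0.920 to 4.12 ± 2.09 CPM. Without 96 h DOX exp1_2, 12 were tested and 2 fell, Jup and Dsg2. With DOX against no DOX 1 rose, Dsp, which encodes desmoplakin, the linker of keratin filaments to desmosomes. Dsp was 6.14, 10.3 and 6.73 CPM without DOX and 31.7 (exp1_1), 18.1 (exp2_1) and 59.4 (exp1_2) CPM with DOX (log2 fold change 2.19 ± 0.43, edgeR adjusted p = 0.00599), and it was called without 96 h DOX exp1_2 too.

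Of 14 other intermediate filament genes, 12 were tested. Without DOX against 2iL 5 rose and 4 fell, where 11.5% of all tested genes rose and 8.9% fell. Prph, the neuronal filament peripherin, rose from 2.45 ± 1.89 to 81.9 ± 25.1 CPM, and Lmna, lamin A/C, fell from 52.6 ± 17.9 to 13.5 ± 1.87 CPM. With DOX against no DOX 3 rose and 1 fell, where 2.16% of all tested genes rose and 0.945% fell. The listed gene that fell was Nes, which encodes the neural filament nestin (53.3 ± 3.64 to 17.5 ± 1.16 CPM). Among those that rose, Lmna was not called without 96 h DOX exp1_2, while Nefl and Vim were. The bar plot of list counts gives these numbers for each comparison.

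**Figure D5:**
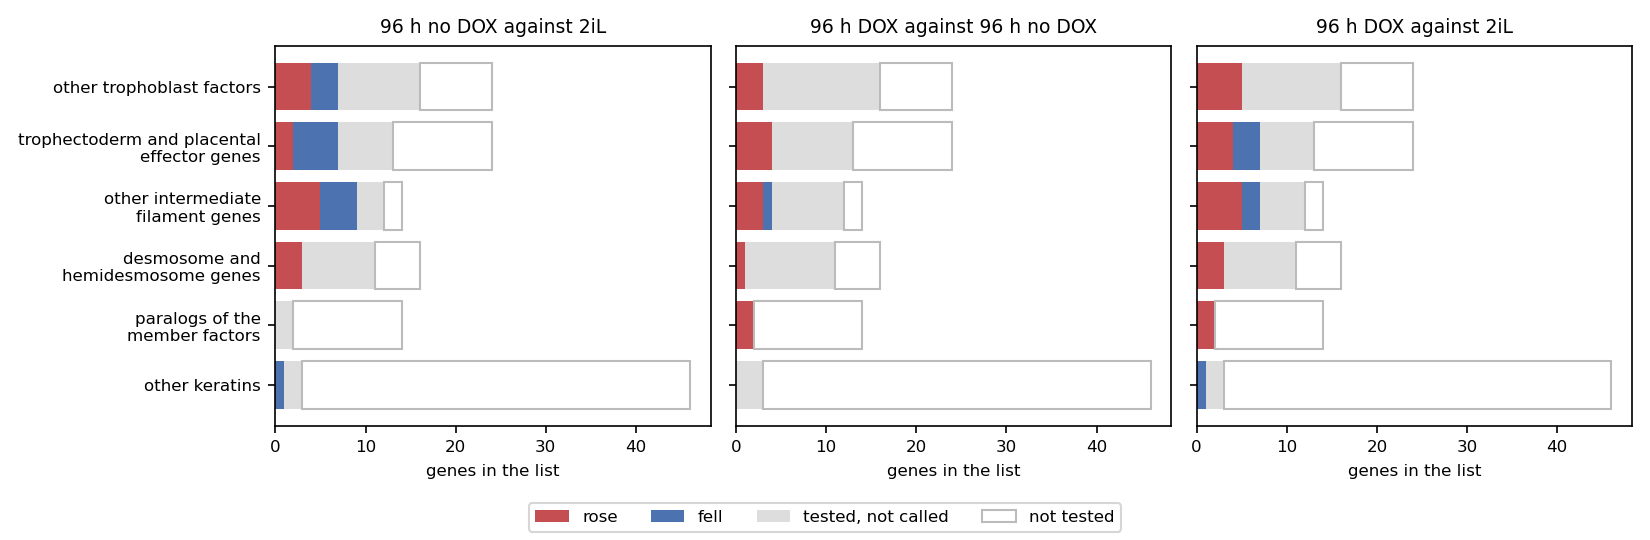
Number of genes (horizontal axis) in each related list that rose, fell, were tested but not called, or were not tested, for each of the 3 comparisons. With DOX against no DOX, 3 of 16 tested trophoblast factors and 4 of 13 tested effector genes rose and none fell. Of all tested genes, 2.16% rose with DOX against no DOX. Of the 46 other keratins, 43 were not tested in any comparison.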

How the data were processed

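RNA of 10 libraries was read by 3′ digital gene expression. The authors deposited read counts per gene for each library, made with bcl2fastq, STAR 2.6.0a and HTSeq on mm10 per the submitters' processing notes; the sources used here give neither annotation release nor strand setting. HTSeq summary lines, 62.7% to 68.4% of reads, were left out. The authors' deposited CPM table gave whole reads for 310530 of 310530 values (tolerance 0.01), all equal to the counts; a count test on them called the same 2289, 348 and 1870 genes. Symbols matched 30934 of 31053 IDs.

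edgeR 4.0.16 in R 4.3.3 fitted all 10 libraries (filterByExpr by group, minimum count 10; TMM factors 0.913 to 1.09; robust quasi-likelihood; Benjamini-Hochberg over 11215 genes; threshold 0.05). The edgeR fit alone was tried on simulated counts, for DOX against no DOX only and with no difference between experiments. Alternatives used DESeq2 1.42.0, limma-voom (limma 3.58.1), other filters and scalings, only 2 groups, blocks, experiment 1 alone and leaving out each library. Likeness used log2(CPM + 1). From each list, up to 3 called genes per direction with the smallest adjusted p could be named; some are given. The genes and lists were chosen with earlier results of these data known. Promoter windows are from RefSeq, GRCm38.p6.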

Additional observations from a re-analysis of the deposited data

Results flagged for a closer look

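Chance marks about 1 in 20 groups in the search for a library far from the rest of its group. The search covered 10 groups of values, so not every gene was searched in every group of libraries. In 2iL, Tfap2a stood at 14.1 CPM in exp2_1, far above the other 3 libraries, which lay between 5.31 and 6.63 CPM. Gcm1 in 2iL reached 0.291 CPM in exp1_2 and Hand1 0.663 CPM in exp1_1, where the other 3 libraries had 0 reads. These levels are 1 and 2 reads. Any read beside 3 libraries with 0 reads is marked, so the rate of 1 in 20 does not hold for them. The experiments differed for Cdx2 within 2iL, by 4.16 on the log2 scale, higher in experiment 2 (edgeR adjusted p = 0.0464).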

How the results depend on the processing

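Over the log2 fold changes of the 7 tested genes, 391 alternatives kept direction and side of the threshold, 14 lost a call, 1 gained one and 11 reversed; the cause was not tested. No reversed value was called. Genes called without DOX against 2iL were 2289, and 1208 in experiment 1 alone; with DOX against 2iL 1870 and 897, where 1 of the 10 listed genes was called in place of 3. With DOX against no DOX 348 were called, against 564 without a filter, 212 with only the 2 groups, 563 with DESeq2, 95 in experiment 1 alone and 161 to 358 when 1 library was left out (161 without 96 h no DOX exp1_1, 181 without exp2_2 of that group). Reading at least 1 CPM in 3 libraries as the filter left 1 gene, Hand1, too low to judge in place of 3. Cdx2 is then tested and falls without DOX and with DOX against 2iL (edgeR adjusted p = 0.0334 and 0.0196), so 4 genes are called in place of 3. That fall rests on the 2iL libraries of experiment 2, at 13.5 and 20.6 CPM, beside 0.332 and 1.46 CPM in experiment 1. With only the 2 groups, Gcm1 is not tested without DOX against 2iL and 2 are called. Reads recovered from the CPM table give the main values again by construction and are not counted here.

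Leaving out 1 library gave, without DOX against 2iL, −0.24 to 1.42 for Eomes. With DOX against no DOX it gave −0.24 to 1.42 for Eomes, −0.61 to 0.91 for Tfap2a and −0.10 to 0.33 for Tfap2c. With DOX against 2iL it gave −0.045 to 0.41 for Krt8 and −1.72 to 0.083 for Krt19. For DOX against no DOX, experiment 1 alone gave −0.29 for Eomes and −0.032 for Tfap2c, and limma-voom 0.074 for Tfap2a.

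Deviations of same-numbered libraries of different groups correlated at −0.10 to 0.20, and those of the other pairs between groups at −0.18 to 0.14. These weak values do not settle whether library numbers pair the groups, and the main fit used no pairing. With experiment and number as a replicate block, 159 genes were called with DOX against no DOX, and the Gcm1 call without DOX was lost (adjusted p = 0.0723; 0.0604 with the experiment alone as a replicate block).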
